A study of Mus musculus with 20 samples.

Results

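The antioxidant and NRF2 target genes described here are 10 genes, Hmox1, Nqo1, Gclc, Gclm, Txnrd1, Srxn1, Gsr, Cat, Sod1 and Sod2, taken by symbol from the deposited gene table. The list was chosen with earlier results of these data known. All 10 have a row among its 24411 genes, and all 10 are among the 18807 genes that entered the tests because they had at least 5 reads in total over the 20 libraries. The study sequenced RNA of the outer eyecup, which holds the retinal pigment epithelium (RPE) and the choroid, to learn how the mouse eye responds to the supply of vitamin A. Each library was made from both eyecups of 1 mouse, by the account in the study's methods, and the 4 groups have 5 libraries each. VAS WT and VAD WT were wild-type C57BL/6 mice, by the labels, fed a vitamin A sufficient diet (4 IU per g) or a vitamin A deficient diet (0 IU per g) for 12 weeks after weaning. VAS Stra6-/- and VAD Stra6-/- were mice labelled C57BL/6 as well, and C57BL/6J in the study's methods, lacking STRA6, the transporter that brings retinol from the blood into the RPE, on the same pair of diets for the same time. The WT mice came from a supplier and the Stra6-/- mice from the study's own colony, so the genotype and the origin of the mice cannot be told apart. The sex of the mice and the part of the gene that the Stra6 allele lacks are not given in the sources used here.

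NRF2, the product of Nfe2l2, is a transcription factor that is held at a low level by KEAP1, an adaptor that hands it to a CUL3 ubiquitin ligase for breakdown. Oxidants and electrophiles modify KEAP1, and NRF2 then builds up, pairs with a small MAF protein and binds the antioxidant response element in front of genes for glutathione synthesis, thioredoxin and quinone reduction and heme breakdown, while BACH1 competes for the same elements as a repressor. Catalase and the superoxide dismutases clear hydrogen peroxide and superoxide directly, and the RPE, which takes up spent photoreceptor membranes under bright light and high oxygen, is known for a strong need of these defences.

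The promoters of the genes are shown first because the element that NRF2 reads is a short DNA motif. RefSeq promoter entries on GRCm38.p6, from 250 bases before to 50 bases after a transcript start, were found for 7 of the 10 genes (9 entries, 3 of them for the 3 starts of Txnrd1), and Hmox1, Gclc and Gsr have no entry in the table. The core TGACNNNGC, searched on both strands, stood in the entries of 4 genes, Gclm, Sod1, Srxn1 and Txnrd1, and in 12.4% of all 32851 promoters of the same length. A looser core, TGANNNNGC, which every match of the first core also meets, stood in entries of the same 4 genes and in 41.3% of all promoters. Neither core was found in the windows of Cat, Nqo1 and Sod2, which says only that these letters are not in those 300 bases. For each of 5 starts, the stretch of 60 bases around the match nearest before the start is printed 5′ to 3′ on the gene's strand, the plus strand for all, with every match of the looser core in the stretch in capitals. None of these stretches overlaps an exon of its gene in GENCODE vM21.
Srxn1, chr2:152105449-152105508: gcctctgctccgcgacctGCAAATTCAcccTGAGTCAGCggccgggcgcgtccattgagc
Gclm, chr3:122245393-122245452: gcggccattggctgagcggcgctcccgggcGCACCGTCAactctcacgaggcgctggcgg
Txnrd1, start at 82859206, chr10:82859084-82859143: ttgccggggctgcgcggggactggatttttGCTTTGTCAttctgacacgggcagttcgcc
Txnrd1, start at 82860341, chr10:82860227-82860286: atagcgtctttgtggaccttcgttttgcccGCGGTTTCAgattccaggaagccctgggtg
Sod1, chr16:90220676-90220735: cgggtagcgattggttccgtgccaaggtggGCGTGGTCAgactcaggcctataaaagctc
In Gclm, Sod1 and Txnrd1 the core lies on the other strand, so that the capitals begin with GC and end with TCA. They begin 134 bases before the start in Gclm, 56 in Sod1 and 92 before the upper Txnrd1 start, and these 3 also match the stricter core. Srxn1 holds the only forward match of the 5 stretches, TGAGTCAGC, 45 bases before its start. A match of Srxn1 to the looser core 158 bases before the start and its match to the stricter core 28 bases after the start are not printed. A match is a description of the letters and was not tested as a binding site.

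Before the results, the libraries were checked against their labels. The reads recovered per library ranged from 13331903 to 21878614, and no member had fewer than 114 reads in any library (95% Poisson interval 94.0 to 137, for counting error only). Stra6 itself, on chromosome 9 from 58063788 to 58153996 of GRCm38, had normalized values of 2414 to 2742 in VAS WT, 669 to 1529 in VAD WT and 564 to 694 in VAS Stra6-/-. In the libraries labelled VAD Stra6-/- it read 1973 to 2393, above every VAD WT and VAS Stra6-/- library. The mean of the summed RPE markers was also highest there, at 574802 against 145153 in VAS Stra6-/-, 140144 in VAS WT and 57857 in VAD WT. From VAS Stra6-/- to the libraries labelled VAD Stra6-/-, the log2 fold change of Stra6 was 1.78, beside a median of 1.90 for the 12 RPE markers. From VAD WT to the same libraries these values were 1.23 and 3.04, and from VAS WT they were -0.26 and 1.66. STRA6 works in the RPE, so the Stra6 value alone cannot settle whether the label holds, and this was not tested. The same 5 libraries hold both the female transcript Xist (3569.8 to 4279.6) and the Y-linked transcript Ddx3y (741 to 969.7). VAS WT holds Ddx3y with little Xist, and VAS Stra6-/- holds Xist with Ddx3y at 1.02 or less. Sex and genotype therefore cannot be told apart on the VAS diet. Nor can sex and diet be told apart between VAS Stra6-/- and the libraries labelled VAD Stra6-/-, which also enter the interaction. Whether each library labelled VAD Stra6-/- holds RNA of 1 mouse, as the methods state, was not tested, and with both transcripts present its spread may not be that between mice. In VAD WT, replicates 2 and 4 stand apart from replicates 1, 3 and 5, with Xist at 10912 and 11767 against 174 to 234, with Ddx3y at 75.2 and 80.5 against 1041 to 1133, and with other levels of the markers of most cell types. Member results and list counts that rest on VAD WT are therefore also given without these 2 libraries, while values of single pathway genes are over all 5. The 2 libraries were chosen with earlier results of these data known, and leaving them out narrows the spread by that choice. Calls and p-values without them are therefore a description only, here and below. Which VAD WT libraries stand for the group was not tested. No comparison of the VAD diet in Stra6-/- mice can be made without the libraries labelled VAD Stra6-/-. The markers of the labelled tissue were present in all groups, with no RPE marker of 12 at 0, and keratins and other genes of the cornea and surface epithelium were present too.

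Values are gene counts divided by a size factor for each library, called normalized values here, so a gene is compared between libraries and not with another gene. Differences are log2 fold changes of the normalized value plus 1, fitted with limma over all 20 libraries with the Benjamini-Hochberg adjustment over the 18807 genes, and a gene was called at an adjusted p under 0.05. The p-values measure the spread between the libraries of a group. In RNA from whole tissue, more cells of a type and more RNA per cell cannot be told apart. Comparisons below share groups, so that VAS Stra6-/- enters both the genotype comparison on the VAS diet and the diet comparison in Stra6-/-, and their values are set side by side only.

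Of the 10 genes, 5 rose and 1 fell in VAS Stra6-/- compared with VAS WT, against a background of 15.9% of all genes called higher and 10.8% called lower. The risen genes were Hmox1, Gclc, Txnrd1, Srxn1 and Cat, and the gene that fell was Sod1. With the VAD diet in WT mice, Gclc rose and Txnrd1 fell, where 3.29% of all genes were called higher and 5.5% lower. Compared with VAS Stra6-/-, all 10 genes were higher in the libraries labelled VAD Stra6-/-, with 24.4% of all genes called higher and 28.8% lower, and 9 of 10 were higher than in VAD WT, with 26.2% called higher and 29.6% lower. Without VAD WT replicates 2 and 4 the same 9 were higher than VAD WT, beside 30.7% of all genes higher and 32.5% lower. The median log2 fold change of the 10 genes was 0.28, 0.08, 0.56 and 0.76 in these 4 comparisons in turn, beside 0.02, 0.00, -0.07 and -0.05 for all genes tested. The plot of the 10 genes by library shows these steps.

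**Figure D1:**
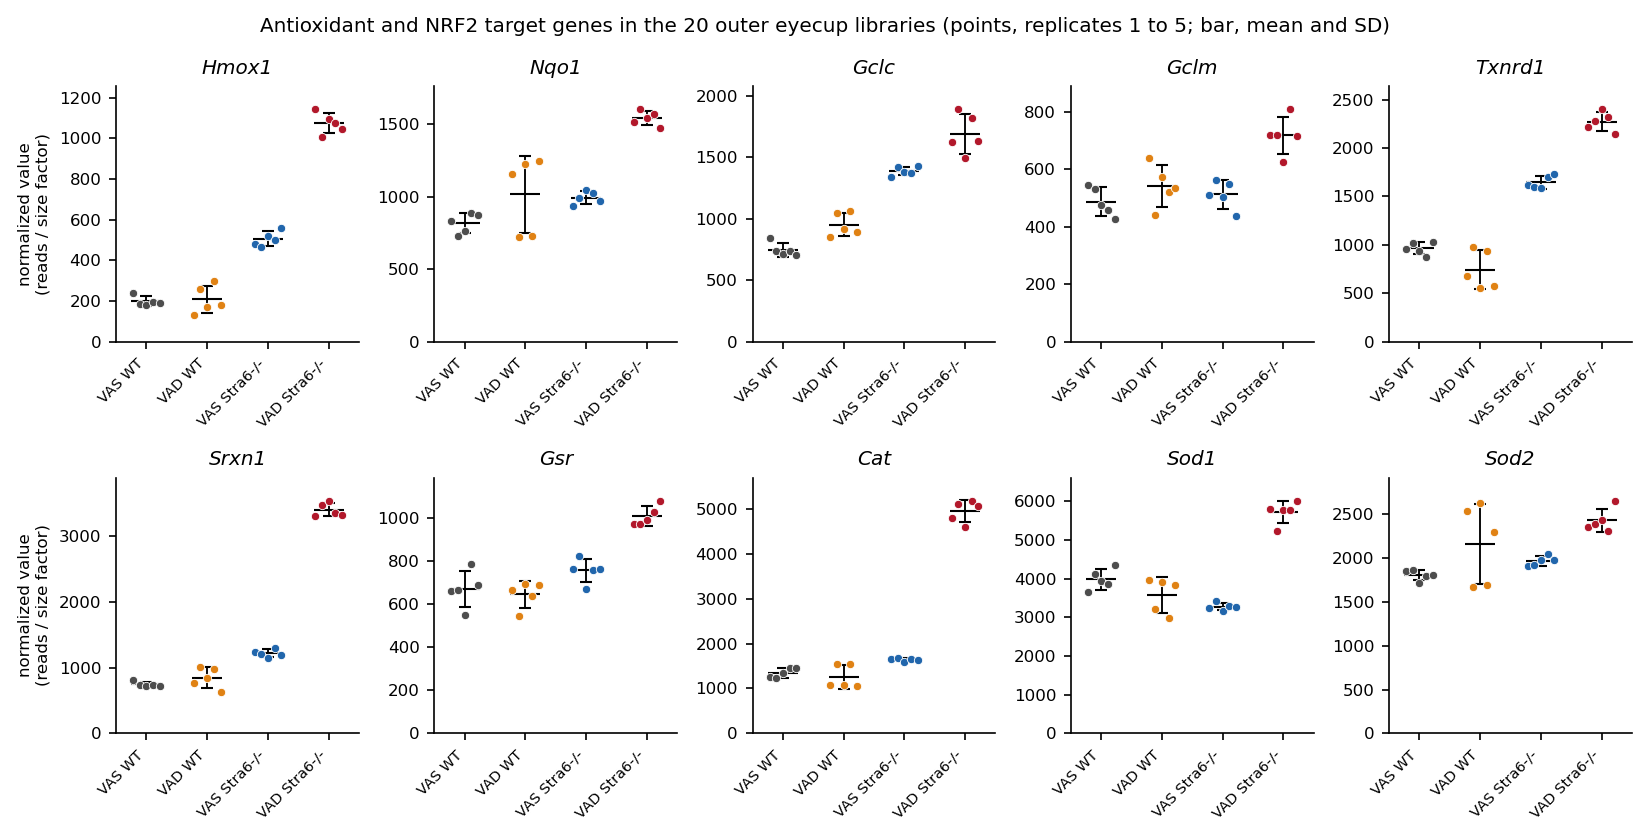
Normalized value (reads divided by the size factor of the library, linear axis from 0) of the 10 genes in each of the 20 libraries. Points are libraries in the order of replicates 1 to 5 and bars are the mean and SD of 5 libraries. The libraries labelled VAD Stra6-/- have the highest mean for every gene, with 1074 for Hmox1 against 200 in VAS WT. The VAD WT libraries split into replicates 2 and 4 and replicates 1, 3 and 5, without overlap, for each of the 10 genes.

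The largest difference of the 10 genes between VAS Stra6-/- and VAS WT was that of Hmox1. It encodes heme oxygenase 1, the inducible enzyme that splits heme into biliverdin, iron and carbon monoxide, and lies on chromosome 8 from 75093621 to 75100589. Its normalized values were 241, 186, 183, 196 and 193 in VAS WT replicates 1 to 5 and 134, 258, 170.3, 300.4 and 181 in VAD WT. They were 482, 464, 521, 503 and 561 in VAS Stra6-/- and 1143, 1008, 1096, 1076 and 1048 in the libraries labelled VAD Stra6-/-. The 3 levels, WT on either diet, VAS Stra6-/- and the libraries labelled VAD Stra6-/-, did not overlap. Hmox1 rose 2.53-fold in VAS Stra6-/- compared with VAS WT, a log2 fold change of 1.34 (SE 0.16, adjusted p = 1.67e-06). Compared with VAD WT, the libraries labelled VAD Stra6-/- were 5.34-fold higher, at 2.42 (SE 0.16, adjusted p = 2.22e-11), and compared with VAS Stra6-/- 2.12-fold higher, at 1.09 (SE 0.16, adjusted p = 4.13e-06). Between the diets in WT the log2 difference was 0.01 (SE 0.16, adjusted p = 0.992). Without VAD WT replicates 2 and 4 that difference turned to -0.31 (SE 0.11, adjusted p = 0.0269), so its sign rests on these 2 libraries. Their summed erythrocyte markers were 44958 and 45449 against 3175 to 3392 in VAD WT replicates 1, 3 and 5, and the part of this in their Hmox1 values of 258 and 300.4 was not tested. Without them the difference between VAD WT and the libraries labelled VAD Stra6-/- became 2.73 (SE 0.11, adjusted p = 2.52e-15).

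Quinone reduction is the work of Nqo1, the NAD(P)H quinone dehydrogenase on chromosome 8 from 107388225 to 107403206, which is widely used as a readout of NRF2. Its values were 832, 728, 767, 888 and 878 in VAS WT and 1155, 722, 1229, 732 and 1250.4 in VAD WT. They were 941, 991, 1049, 1027 and 971 in VAS Stra6-/- and 1517, 1605, 1543, 1575 and 1477 in the libraries labelled VAD Stra6-/-. Every VAS Stra6-/- value was above every VAS WT value, but the difference of 0.28 (SE 0.13, adjusted p = 0.111) missed the threshold in the fit over all libraries, where the wide spread of VAD WT enters the error. With VAD WT replicates 2 and 4 left out the same difference passed, at 0.28 (SE 0.06, adjusted p = 0.000294), and so did the rise with the VAD diet in WT, 0.57 (SE 0.06, adjusted p = 5.3e-07) against 0.27 (SE 0.13, adjusted p = 0.215) with all libraries. The call of the diet difference was also gained with replicate 2 or replicate 4 alone left out. VAD WT replicates 1, 3 and 5 read 1155 to 1250.4 and replicates 2 and 4 read 722 and 732. Nqo1 rose to the libraries labelled VAD Stra6-/- from both VAS Stra6-/-, by 0.63 (SE 0.13, adjusted p = 0.000255), and VAD WT, by 0.64 (SE 0.13, adjusted p = 0.000204). The difference from VAD WT shrank to 0.35 (SE 0.06, adjusted p = 6.34e-05) without VAD WT replicates 2 and 4.

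The synthesis of glutathione begins with glutamate-cysteine ligase, which joins glutamate and cysteine. Its catalytic subunit is encoded by Gclc on chromosome 9 (77754535 to 77794485) and its modifier subunit by Gclm on chromosome 3 (122245557 to 122270732). Gclc values were 844, 735, 717, 735 and 706 in VAS WT and 849, 1043, 918, 1065 and 890.4 in VAD WT. They were 1342, 1423, 1378, 1371 and 1426 in VAS Stra6-/- and 1623, 1889, 1490.3, 1817 and 1633 in the libraries labelled VAD Stra6-/-. The 4 groups did not overlap and stood in that order. Gclc was the one member that rose at every step, by 0.89 (SE 0.08, adjusted p = 3.66e-08) in VAS Stra6-/- compared with VAS WT, by 0.35 (SE 0.08, adjusted p = 0.00564) with the VAD diet in WT and by 0.28 (SE 0.08, adjusted p = 0.00425) from VAS Stra6-/- to the libraries labelled VAD Stra6-/-. The WT diet difference missed the threshold when only VAS WT and VAD WT were fitted (adjusted p = 0.0506, limma) and held without VAD WT replicates 2 and 4, at 0.25 (SE 0.07, adjusted p = 0.00895).

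The modifier subunit differed less between groups. Gclm ranged over 427 to 547 in VAS WT, 442 to 640.2 in VAD WT and 438 to 563 in VAS Stra6-/-, and these 3 ranges overlap. It was 624 to 808 in the libraries labelled VAD Stra6-/-. Gclm differed between VAS Stra6-/- and VAS WT by 0.07 (SE 0.10, adjusted p = 0.666), and rose in the libraries labelled VAD Stra6-/-, by 0.49 (SE 0.10, adjusted p = 0.000394) over VAS Stra6-/- and by 0.41 (SE 0.10, adjusted p = 0.00189) over VAD WT, or 0.30 without VAD WT replicates 2 and 4. Between the diets in WT it differed by 0.15 (SE 0.10, adjusted p = 0.436) with all libraries and rose by 0.26 (SE 0.10, adjusted p = 0.0466) without these 2. A short pseudogene, Gm6061, and a transcript of the other strand, Gm17494, share 3.88% and 4.71% of the exon bases of Gclm in GENCODE, the strand of the libraries is not stated, and no other member shares exon bases with another gene.

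Glutathione reductase, the product of Gsr on chromosome 8 from 33652523 to 33698163, returns oxidised glutathione to its reduced form. Its values ran over 551 to 788 in VAS WT, 545 to 695 in VAD WT and 673 to 827 in VAS Stra6-/-, with overlap between all 3. In the libraries labelled VAD Stra6-/- they ran over 972 to 1082, above all others, with differences of 0.42 (SE 0.09, adjusted p = 0.000438) from VAS Stra6-/- and 0.65 (SE 0.09, adjusted p = 2.4e-06) from VAD WT, or 0.56 without VAD WT replicates 2 and 4. The difference between VAS Stra6-/- and VAS WT was 0.18 (SE 0.09, adjusted p = 0.147) and did not pass the test, except with VAS WT replicate 4 left out (0.24, adjusted p = 0.0496, limma).

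Thioredoxin is kept reduced by thioredoxin reductases. Txnrd1, on chromosome 10 from 82833951 to 82897712, encodes the cytosolic thioredoxin reductase. Its values were 963, 1019, 943, 879 and 1035 in VAS WT and 685, 982, 559, 935 and 573 in VAD WT. They were 1614, 1596, 1590.2, 1698 and 1727 in VAS Stra6-/- and 2213, 2281, 2399, 2324 and 2146 in the libraries labelled VAD Stra6-/-. The VAS Stra6-/- libraries lay above all WT libraries and below all those labelled VAD Stra6-/-. Txnrd1 rose by 0.77 (SE 0.12, adjusted p = 5.99e-05) in VAS Stra6-/- compared with VAS WT and, compared with VAD WT, was 3.13-fold higher in the libraries labelled VAD Stra6-/-, at 1.64 (SE 0.12, adjusted p = 1.86e-10), and at 1.91 without VAD WT replicates 2 and 4. In WT it fell with the VAD diet, with a log2 fold change of -0.41 (SE 0.12, adjusted p = 0.0357), and the fall lay in replicates 1, 3 and 5 (559 to 685), since replicates 2 and 4 (982 and 935) were inside the VAS WT range. Without those 2 the change was -0.68 (SE 0.07, adjusted p = 8.33e-08). The call did not hold when VAS WT replicate 1, 2, 3 or 5 or VAD WT replicate 1, 3 or 5 was left out, with adjusted p from 0.0625 to 0.102 (limma), when only VAS WT and VAD WT were fitted (adjusted p = 0.262, limma) or with edgeR (adjusted p = 0.0761).

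Srxn1 encodes sulfiredoxin, which restores peroxiredoxins that hydrogen peroxide has overoxidised, and lies on chromosome 2 from 152105516 to 152111376. It read 806, 740.0, 721, 743 and 720.4 in VAS WT and 771, 1012, 844, 984 and 624 in VAD WT. It read 1242, 1203, 1153, 1307 and 1196 in VAS Stra6-/- and 3311, 3480.0, 3539, 3359 and 3327 in the libraries labelled VAD Stra6-/-. The VAS Stra6-/- libraries lay above all WT libraries, and those labelled VAD Stra6-/- higher again with no overlap. The rises were 0.71 (SE 0.09, adjusted p = 9.36e-06) in VAS Stra6-/- compared with VAS WT and 1.48 (SE 0.09, adjusted p = 1.97e-11), or 2.79-fold, from there to the libraries labelled VAD Stra6-/-. Compared with VAD WT, the libraries labelled VAD Stra6-/- were higher by 2.03 (SE 0.09, adjusted p = 1.51e-13), and by 2.20 without VAD WT replicates 2 and 4. Between the diets in WT the difference of 0.16 (SE 0.09, adjusted p = 0.343) did not pass, except with VAD WT replicate 5 left out (0.27, adjusted p = 0.0267, limma). Without VAD WT replicates 2 and 4 it was -0.01 (SE 0.07, adjusted p = 0.95, limma).

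Catalase, the peroxisomal enzyme that splits hydrogen peroxide, is encoded by Cat on chromosome 2 from 103453849 to 103485160. Its values were 1264, 1223, 1344, 1461 and 1459 in VAS WT and 1083, 1550.2, 1067, 1543 and 1055 in VAD WT. They were 1658, 1669, 1578, 1655 and 1626 in VAS Stra6-/- and 4799, 5108, 4587, 5175 and 5056 in the libraries labelled VAD Stra6-/-. The first 3 groups lay between 1055 and 1669, and the last group began at 4587. Cat had the largest rise of the 10 genes from VAS Stra6-/- to the libraries labelled VAD Stra6-/-, 3.02-fold, at 1.59 (SE 0.10, adjusted p = 1.35e-11), and stood 3.98-fold above VAD WT there, or 4.62-fold without VAD WT replicates 2 and 4. Its rise of 0.28 (SE 0.10, adjusted p = 0.0415) in VAS Stra6-/- compared with VAS WT was close to the threshold. It missed the threshold with any 1 VAS Stra6-/- library or VAS WT replicate 1, 2 or 3 left out, after rescaling by TMM factors and with edgeR, with adjusted p from 0.0575 to 0.103.

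The superoxide dismutases turn superoxide into hydrogen peroxide, SOD1 in the cytosol with copper and zinc and SOD2 in mitochondria with manganese. Sod1, on chromosome 16 from 90220754 to 90226329, read 3644, 4129, 3925, 3859 and 4358 in VAS WT and 3974, 3209.7, 3912, 2972 and 3829 in VAD WT. It read 3240.3, 3422, 3160.1, 3284 and 3277 in VAS Stra6-/- and 5800.3, 5241, 5763, 5780.2 and 6010 in the libraries labelled VAD Stra6-/-. Every VAS Stra6-/- value was below every VAS WT value, and every value of the libraries labelled VAD Stra6-/- above all others. Sod1 fell by 0.28 on the log2 scale in VAS Stra6-/- compared with VAS WT (SE 0.08, adjusted p = 0.00991), the only member that did, and this held in all 30 alternative settings. It rose by 0.80 (SE 0.08, adjusted p = 1.34e-08) from VAS Stra6-/- to the libraries labelled VAD Stra6-/-.

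Sod2, on chromosome 17 from 13006846 to 13040063, read 1849, 1866, 1717, 1799.9 and 1808 in VAS WT and 2535, 1669.7, 2633, 1693 and 2298 in VAD WT. It read 1908, 1926, 1984, 2043 and 1978 in VAS Stra6-/- and 2354, 2395, 2433, 2316 and 2656 in the libraries labelled VAD Stra6-/-. The VAD WT libraries 1 and 3 lay above the median of the libraries labelled VAD Stra6-/-, while replicates 2 and 4 of VAD WT lay below all other libraries. Sod2 was the one member that was not called between VAD WT and the libraries labelled VAD Stra6-/-, with a difference of 0.19 (SE 0.10, adjusted p = 0.116) and, without VAD WT replicates 2 and 4, of -0.03 (SE 0.05, adjusted p = 0.602). It was called with VAD WT replicate 1 (0.26, adjusted p = 0.0389, limma) or replicate 3 (0.27, adjusted p = 0.0236, limma) left out. It rose by 0.30 (SE 0.10, adjusted p = 0.0154) over VAS Stra6-/-, the smallest rises in that comparison being those of Gclc and Sod2. Between VAS Stra6-/- and VAS WT the difference was 0.12 (SE 0.10, adjusted p = 0.419), and it passed without VAD WT replicates 2 and 4, at 0.12 (SE 0.04, adjusted p = 0.0348). The difference with the VAD diet in WT, 0.23 (SE 0.10, adjusted p = 0.175) with all libraries, passed without either or both of these 2 libraries, at 0.46 (SE 0.05, adjusted p = 5.44e-07) without both.

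**Figure D2:**
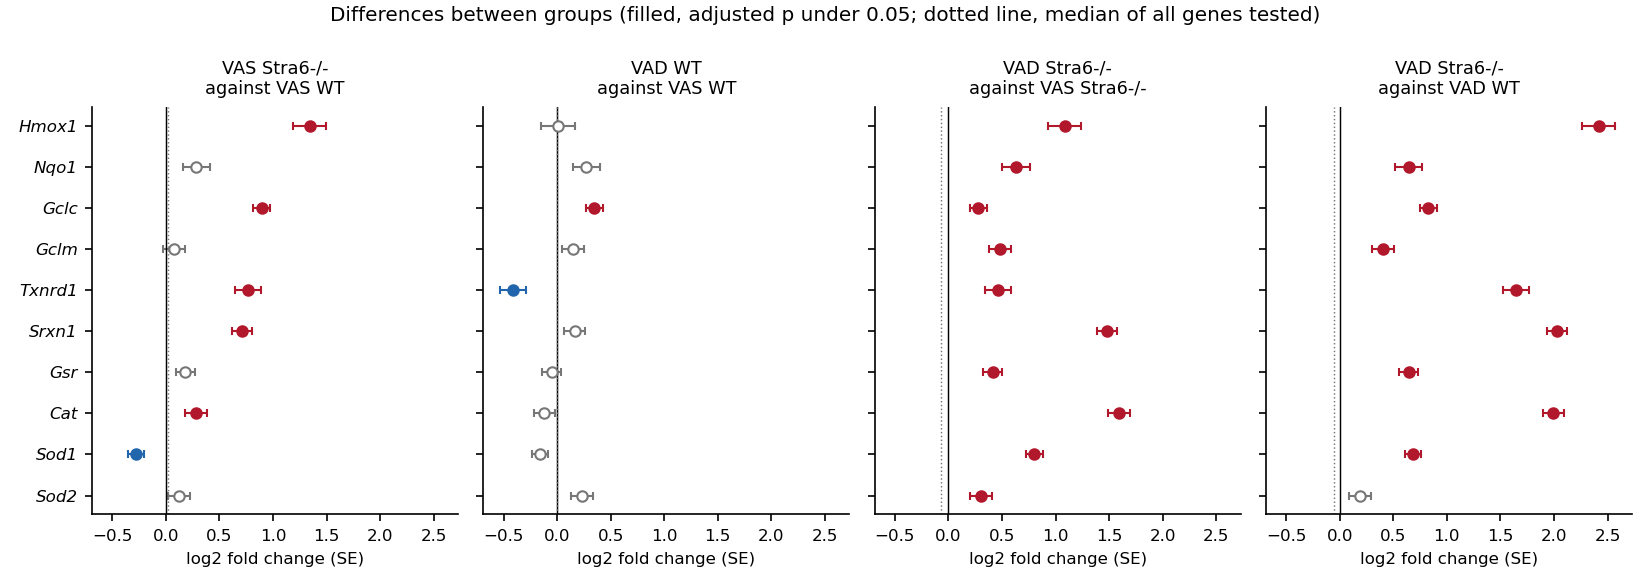
Log2 fold change of the 10 genes (horizontal axis, bars are the standard error from limma) in 4 comparisons, with filled points for genes called at an adjusted p under 0.05 and a dotted line at the median of all 18807 genes. All 10 points are filled on the right of 0 for the libraries labelled VAD Stra6-/- against VAS Stra6-/-, and only Gclc and Txnrd1 are filled for VAD WT against VAS WT.

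The order of the group levels differed between the genes. For Gclc and Srxn1 the means rose from VAS WT through VAD WT and VAS Stra6-/- to the libraries labelled VAD Stra6-/-. For Srxn1 the first step lay in VAD WT replicates 2 and 4, with a log2 difference of -0.01 without them. For Gclc every neighbouring pair in that order differed, with a log2 difference of 0.55 (SE 0.08, adjusted p = 1.15e-05) between VAS Stra6-/- and VAD WT, and for Srxn1 and Hmox1 the lowest pair, VAS WT and VAD WT, did not differ beyond its spread. Txnrd1, Gsr and Cat were lowest in VAD WT, and of these pairs Txnrd1 alone differed between VAD WT and VAS WT. For Nqo1, Gclm, Sod1 and Sod2 the pair VAD WT and VAS Stra6-/- did not differ beyond its spread over all libraries, with log2 differences from -0.12 to 0.01, and Sod1 was lowest in VAS Stra6-/-. This order depended on the split VAD WT group. Without VAD WT replicates 2 and 4, an alternative chosen for this pair after seeing the data, VAS Stra6-/- was lower than VAD WT for Nqo1, at -0.28 (SE 0.06, adjusted p = 0.000809), Sod1, at -0.25 (SE 0.05, adjusted p = 0.000338), and Sod2, at -0.34 (SE 0.05, adjusted p = 1.27e-05), and Gclm did not pass, at -0.19. Over all 10 genes and all libraries, VAS Stra6-/- was higher than VAD WT for 6, Hmox1, Gclc, Txnrd1, Srxn1, Gsr and Cat, and lower for 0, beside 20.2% of all genes higher and 15.1% lower. Without the 2 libraries it was higher for 5, Gsr (0.14) no longer passing, and lower for 3, beside 29.9% higher and 23.4% lower. The libraries labelled VAD Stra6-/- were higher than VAS WT for all 10, from 0.43 for Sod2 to 2.43 for Hmox1, beside 25.3% of all genes higher and 27.4% lower.

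Levels can be set side by side between the genes only per length. Per kb of merged GENCODE exon, Sod1 had the highest mean in VAS WT (1003), ahead of Nqo1 (527) and Cat (517), and Gclm the lowest (77.5). In the libraries labelled VAD Stra6-/-, Cat was highest (1892), then Sod1 (1441) and Srxn1 (1207), and Gclm was again lowest (114). Hmox1 moved from 114 to 613 on this scale. These are levels over the annotated exons, whether or not each exon is used in this tissue.

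Whether the diet acted differently in the 2 genotypes was asked with the interaction, the diet difference in Stra6-/- minus that in WT, which takes the labels as given and rests on the split VAD WT group and on the libraries labelled VAD Stra6-/-. For 6 of the 10 genes the difference between the diets was larger in the libraries labelled Stra6-/- than in WT, beside 19.5% of all genes with a positive and 24.8% with a negative interaction called. The 6 were Cat, with a difference of 1.71 (SE 0.14, adjusted p = 2.35e-09), Srxn1, with 1.32 (SE 0.13, adjusted p = 5.62e-08), Hmox1, with 1.08 (SE 0.22, adjusted p = 0.000387), Sod1, with 0.96 (SE 0.11, adjusted p = 2.69e-07), Txnrd1, with 0.88 (SE 0.17, adjusted p = 0.000232), and Gsr, with 0.47 (SE 0.13, adjusted p = 0.00457). The same 6 genes were called without VAD WT replicates 2 and 4, with differences from 0.38 to 1.93, beside 25.7% of all genes positive and 29.0% negative. Nqo1, Gclc, Gclm and Sod2 did not pass, at 0.36, -0.07, 0.34 and 0.07. Gclm passed with VAS WT replicate 5, VAD WT replicate 1 or replicate 3 of the libraries labelled VAD Stra6-/- left out (0.38 to 0.40, adjusted p from 0.0266 to 0.0413, limma), and Nqo1 with VAD WT replicate 5 left out (0.44, adjusted p = 0.046, limma). The plot of the diet differences by genotype sets the 2 side by side.

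**Figure D3:**
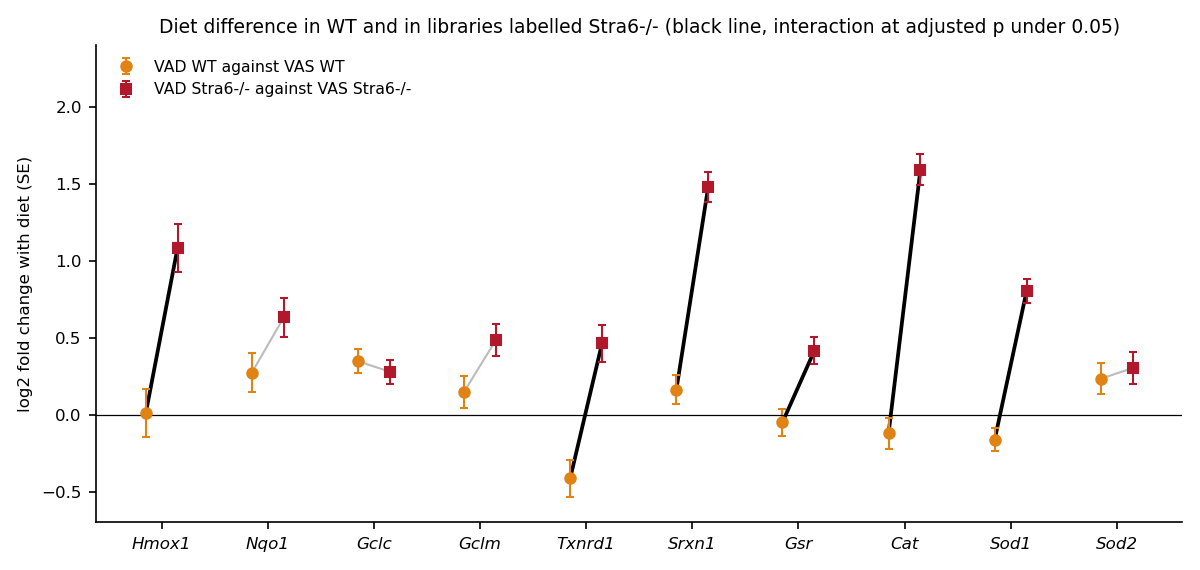
Log2 fold change with the VAD diet for each gene (vertical axis, bars are the standard error), in WT as circles and between VAS Stra6-/- and the libraries labelled VAD Stra6-/- as squares, joined by a black line where the interaction was called at an adjusted p under 0.05 and by a grey line where it was not. Hmox1 goes from 0.01 in WT to 1.09 in the libraries labelled Stra6-/-, Cat from -0.12 to 1.59, and Gclc stays at 0.35 and 0.28.

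The VAD diet in WT was, of the 5 comparisons recomputed, the one whose counts depended most on which libraries entered. Of all genes, 1652 were called, 618 higher and 1034 lower, and 2141 with DESeq2 on the recovered reads, 1059 higher and 1082 lower. Without VAD WT replicates 2 and 4, a choice made with earlier results known, the calls rose to 7124, 3306 higher and 3818 lower. Those among the 10 genes rose from 2 to 7, 4 higher and 3 lower, where 17.6% of all genes were higher and 20.3% lower. Calls after that choice are a description only. These 7 were Nqo1, Gclc, Gclm and Sod2, which rose, and Hmox1, Txnrd1 and Cat, which fell, Cat with a log2 fold change of -0.33 (adjusted p = 9.91e-05, limma). When only VAS WT and VAD WT were fitted, 0 of the 10 were called by limma and 2 had an unadjusted p under 0.05, beside 1 called by edgeR and 2 by DESeq2 over all recovered libraries. In VAD WT replicates 1, 3 and 5 Hmox1 (134 to 181), Txnrd1 (559 to 685) and Cat (1055 to 1083) were below every VAS WT library, and Nqo1 (1155 to 1250.4) and Sod2 (2298 to 2633) above every one.

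Most regulators of the pathway rose in VAS Stra6-/-. Of 11 regulator genes, 8 rose in VAS Stra6-/- compared with VAS WT and 3 did not pass, with a median log2 fold change of 0.55, so that 72.7% of the list was higher where 15.9% of all genes were higher and 10.8% lower. Nfe2l2, the gene of NRF2 itself, rose from 1383 ± 85.2 to 2041 ± 103 (SD, n = 5 each), a log2 fold change of 0.56 (SE 0.08, adjusted p = 1.43e-05). Bach1, the competing repressor, rose from 374 ± 25.2 to 774 ± 88.8 (SD, n = 5 each), at 1.04 (SE 0.17, adjusted p = 7.14e-05). Among the small MAF partners, which can serve either side, Maff rose by 1.60 (SE 0.24, adjusted p = 2.75e-05), Mafk by 1.07 (SE 0.09, adjusted p = 2.95e-08) and Mafg by 0.52 (SE 0.18, adjusted p = 0.0369). Sqstm1, the autophagy receptor p62 that binds KEAP1 and is itself an NRF2 target, rose by 0.63 (SE 0.11, adjusted p = 0.00013), Cul3 by 0.55 and Nfe2l1, a relative of Nfe2l2, by 0.40. Keap1 (0.17), Rbx1 (-0.11) and Trim21 (-0.32) did not pass. Genes of an activator and of a repressor thus rose in the same libraries.

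In the libraries labelled VAD Stra6-/-, where all 10 members were higher than in VAS Stra6-/-, the regulators divided into 3 higher, 5 lower and 3 that did not pass, with a median of -0.09, beside 24.4% of all genes higher and 28.8% lower. Mafk, Mafg and Bach1 were lower, at -1.39 (SE 0.09, adjusted p = 2.94e-11), -1.13 (SE 0.18, adjusted p = 1.55e-05) and -0.59 (SE 0.17, adjusted p = 0.0046), and so were Cul3 (-0.40) and Keap1 (-0.22). Nfe2l1, Trim21 and Sqstm1 were higher, at 0.63, 0.45 and 0.39. Nfe2l2 differed by -0.09 (SE 0.08, adjusted p = 0.376) and did not pass. Against VAD WT, 6 regulators were higher, led by Maff (1.74), Sqstm1 (1.15) and Nfe2l1 (1.14) and including Bach1 (0.52), Trim21 (0.44) and Nfe2l2 (0.22), and 5 were lower, Mafg (-0.51), Mafk (-0.38), Rbx1 (-0.29), Keap1 (-0.27) and Cul3 (-0.17), beside 26.2% of all genes higher and 29.6% lower. These counts became 5 higher and 3 lower without VAD WT replicates 2 and 4, beside 30.7% of all genes higher and 32.5% lower. With the VAD diet in WT, 2 of 11 rose, where 3.29% of all genes did, Cul3 by 0.32 (SE 0.07, adjusted p = 0.00503) and Nfe2l2 by 0.25 (SE 0.08, adjusted p = 0.0457), and without the 2 libraries 4 rose and 4 fell. The interaction was called for 8 of 11 (10 without the 2 libraries, 4 positive and 6 negative), positive for Trim21 (0.76), Nfe2l1 (0.74) and Sqstm1 (0.52) and negative for Mafk (-1.45), Mafg (-1.02), Cul3 (-0.72), Keap1 (-0.44) and Nfe2l2 (-0.34). Over all libraries 27.3% of the list was positive and 45.5% negative, beside 19.5% and 24.8% of all genes. Without the 2 libraries those shares of all genes were 25.7% and 29.0%.

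Other genes known as NRF2 targets, 22 in number, mostly did not pass the test in VAS Stra6-/-. Over VAS WT 3 of them rose and 19 did not pass, with a median log2 fold change of 0.02 that turned to -0.01 after rescaling by TMM factors, where 1 also fell. The share that rose, 13.6%, was near the 15.9% of all genes. With VAD WT replicates 2 and 4 left out of the fit 7 rose and 3 fell, beside 22.5% of all genes higher and 17.5% lower. Osgin1, a growth inhibitor induced by oxidative stress, rose by 1.14 (SE 0.12, adjusted p = 3.25e-07), Slc7a11, the cystine importer, by 0.55 (SE 0.15, adjusted p = 0.00854) and Ugdh, which makes UDP-glucuronate, by 0.32 (SE 0.07, adjusted p = 0.00225). From VAS Stra6-/- to the libraries labelled VAD Stra6-/-, 12 rose (54.5%, beside 24.4% of all genes) and 7 fell (31.8%, near the 28.8% of all genes). The largest rises were those of Me1, the malic enzyme that yields NADPH, at 1.66 (SE 0.22, adjusted p = 1.16e-06), Slc7a11, at 0.93, and Ugdh, at 0.86. The largest falls were those of Tkt (-2.53) and G6pdx (-1.55), both enzymes of the pentose phosphate pathway, and of Gsta4 (-2.38), a glutathione transferase. Tkt fell from 56608 ± 2084 to 9843 ± 1166 (SD, n = 5 each) and Gsta4 from 47945 ± 733 to 9216 ± 730.0 (SD, n = 5 each). Against VAD WT, 11 of the 22 were higher, with Slc7a11 (2.20), Me1 (2.17) and the ferritin light chain gene Ftl1 (1.05) in front, and 6 lower, with Gsta4 (-2.67), Tkt (-2.57) and Txn1 (-1.45) in front. These were 50% and 27.3% of the list, beside 26.2% and 29.6% of all genes. Leaving out VAD WT replicates 2 and 4, 11 were higher and 9 lower, beside 30.7% and 32.5% of all genes. Ftl1 and Txn1 have processed pseudogenes that can share their reads, which makes their values uncertain. With the VAD diet in WT, Osgin1 (0.43) and Ugdh (0.28) rose and 3 genes fell, among them Slc7a11 (-0.73) and Abcc1 (-0.44), an exporter of glutathione conjugates, and without the 2 libraries 10 rose and 6 fell. The interaction was positive for 11 and negative for 6 (11 and 7 without the 2 libraries), from 1.70 for Me1 to -3.10 for Tkt. The 50% positive stood beside 19.5% of all genes, and the 27.3% negative was near their 24.8%. Without the 2 libraries the shares of all genes were 25.7% and 29.0%.

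Genes that make and use glutathione, 15 apart from Gclc, Gclm and Gsr, went partly against the members in VAS Stra6-/-. Of these 1 rose, Slc3a2, the partner chain of the cystine importer, by 0.51 (SE 0.08, adjusted p = 5.8e-05), and 4 fell, among them Ggt1, which breaks down glutathione outside the cell, at -0.95 (SE 0.28, adjusted p = 0.0153), and the peroxidases Gpx7 (-0.49) and Gpx4 (-0.42), so that 26.7% of the list was lower beside 10.8% of all genes. Between VAS Stra6-/- and the libraries labelled VAD Stra6-/-, 8 rose (53.3%, beside 24.4% of all genes) and 5 fell (33.3%, beside 28.8%), with Ggt1 (1.86), Gpx7 (1.17) and Gpx8 (1.13) the largest rises. Gsto1, an omega class glutathione transferase, fell from 200357 ± 3309 to 7715 ± 579 (SD, n = 5 each), at -4.70 (SE 0.24, adjusted p = 5e-13), and Chac1, which degrades glutathione inside the cell, from 929.8 ± 109 to 45.3 ± 10.9 (SD, n = 5 each), at -4.36 (SE 0.24, adjusted p = 1.25e-12). Mgst3 fell too, at -1.42. Between the same groups the mean of the summed surface epithelium and cornea markers fell from 910474 to 26961. The part of this in the falls was not tested. Against VAD WT, 7 were higher and 5 lower, with or without VAD WT replicates 2 and 4. In WT 5 fell with the VAD diet, with Ggt1 (-1.10), Chac1 (-1.05) and Mgst1 (-0.62) in front, and without the 2 libraries 3 rose and 7 fell.

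In the thioredoxin and peroxiredoxin system, 13 genes apart from Txnrd1 and Srxn1 (Prdx6 also stands in the next list), 2 rose and 3 fell in VAS Stra6-/- compared with VAS WT, where the share that rose, 15.4%, was near the 15.9% of all genes and the share that fell was 23.1% beside 10.8%. Without VAD WT replicates 2 and 4 in the fit, 3 rose and 6 fell, beside 22.5% of all genes higher and 17.5% lower. Sesn2, a stress-induced sestrin, rose from 98 ± 13.9 to 351 ± 36.6 (SD, n = 5 each), at 1.83 (SE 0.22, adjusted p = 1.94e-06), and Txnrd3 by 0.58. Txnrd2, the mitochondrial thioredoxin reductase, fell by 0.54 on the log2 scale (adjusted p = 0.0452), against the rise of its cytosolic counterpart Txnrd1, and Prdx4 (-0.40) and Txn2 (-0.21) fell. Compared with VAS Stra6-/-, 5 were higher in the libraries labelled VAD Stra6-/-, led by Prdx4, the peroxiredoxin of the endoplasmic reticulum, at 1.63 (SE 0.12, adjusted p = 2.55e-10), and 2 were lower, Sesn2 (-1.47) and Prdx5 (-0.98), shares of 38.5% and 15.4% beside 24.4% and 28.8% of all genes (8 higher and 3 lower with VAD WT replicates 2 and 4 left out of the fit). Against VAD WT, 6 were higher and 2 lower, with Prdx4 at 1.22 and Prdx5 at -1.42, and 6 and 4 without VAD WT replicates 2 and 4. In WT, Txnrd3 (0.42) and Sesn1 (0.34) rose with the VAD diet, and without the 2 libraries 7 rose and 1 fell.

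Other enzymes that make or clear superoxide and peroxide, 9 in number, mostly did not pass the test in VAS Stra6-/- compared with VAS WT, where 7 were not called and Cyba, a subunit of the NADPH oxidases, fell (-0.45). Over VAS Stra6-/-, 6 were higher in the libraries labelled VAD Stra6-/-, 66.7% beside 24.4% of all genes, led by Cybb (1.60), Nox4 (1.03) and Cyba (0.73), all of the NADPH oxidases that make superoxide, of which Cybb is abundant in phagocytes. Macrophage markers were higher in the same libraries, 8 of 8 over VAS Stra6-/-. Against VAD WT 5 were higher, and in WT Cyba and Sod3, the secreted dismutase, fell with the VAD diet (-0.45 and -0.38). The counts were 5 higher and 2 lower against VAD WT, 3 and 3 for the diet in WT, and 2 and 2 for VAS Stra6-/- against VAS WT, without VAD WT replicates 2 and 4.

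Around Hmox1, 12 other genes of heme metabolism were listed. In VAS Stra6-/- compared with VAS WT, Alas1, which starts heme synthesis, rose by 0.60 (SE 0.17, adjusted p = 0.0105) and Fech, which ends it, by 0.23, while Uros (-0.72) and Urod (-0.31), which act between them, fell and 8 did not pass, so that 16.7% rose and 16.7% fell beside 15.9% and 10.8% of all genes. Of the 12, 8 (66.7%, beside 24.4% of all genes) were higher in the libraries labelled VAD Stra6-/- than they were in VAS Stra6-/-, led by the iron exporter Slc40a1 (1.63), the heme transporter Slc48a1 (1.37) and Hmox2, the constitutive heme oxygenase (0.97), and 2 were lower, with Cpox at -1.29. Hmox2 differed between VAS Stra6-/- and VAS WT by -0.10 (SE 0.09, adjusted p = 0.459), where Hmox1 rose. Against VAD WT, 7 were higher and 2 lower, and in WT Slc40a1 (-0.93) and Slc48a1 (-0.38) fell with the VAD diet. These counts were 7 higher and 3 lower against VAD WT, 1 higher and 5 lower for the diet in WT, and 4 higher and 3 lower for VAS Stra6-/- against VAS WT, without VAD WT replicates 2 and 4. For the lists above, the shares of all genes called higher and lower were 26.2% and 29.6% against VAD WT. They were 3.29% and 5.5% for the diet in WT. Without VAD WT replicates 2 and 4 these became 30.7% and 32.5%, and 17.6% and 20.3%. For VAS Stra6-/- against VAS WT they were then 22.5% and 17.5%, and between the groups labelled Stra6-/- 28.3% and 32.4%. The plot of the lists by comparison puts the counts over all libraries beside the shares of all genes.

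**Figure D4:**
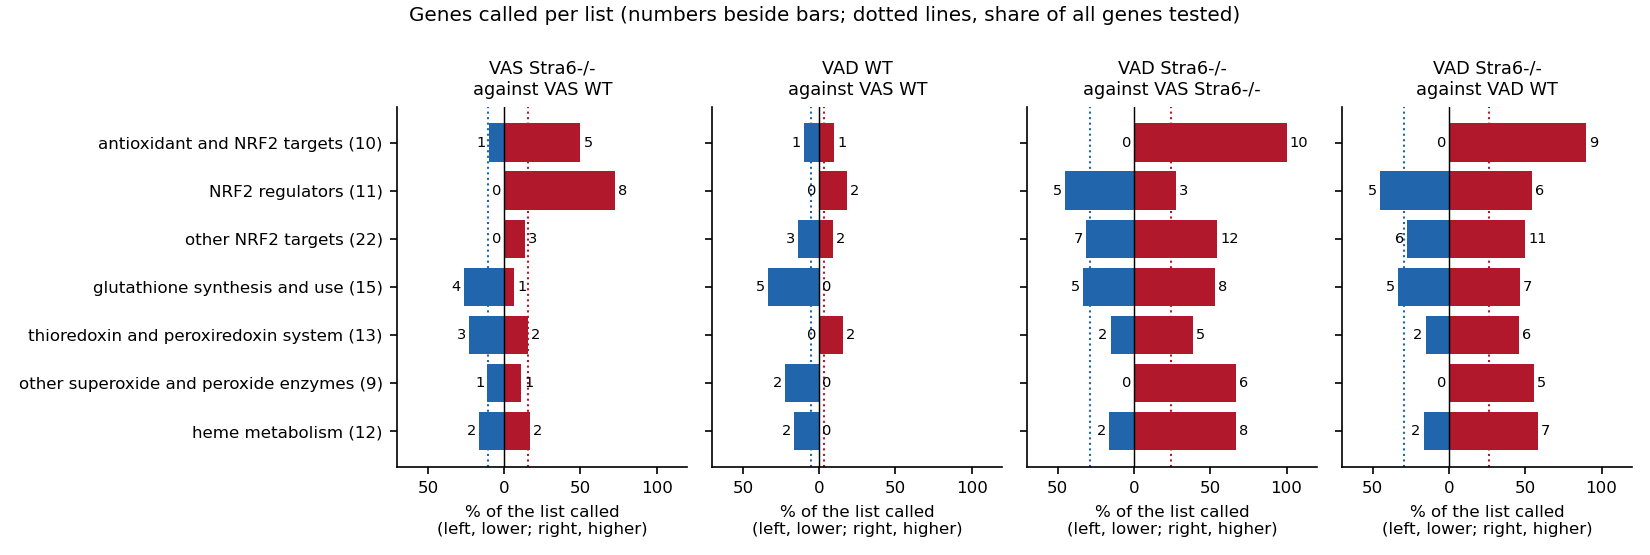
Percent of each list called higher (to the right) or lower (to the left) in 4 comparisons, with the number of genes beside each bar, the size of the list in parentheses and dotted lines for the shares of all 18807 genes. The top bar is the 10 antioxidant and NRF2 target genes, of which 10 rose from VAS Stra6-/- to the libraries labelled VAD Stra6-/-, and the bar below it the 11 regulators, of which 8 were higher in VAS Stra6-/- than in VAS WT.

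The cell types in the libraries moved together with these results. In the libraries labelled VAD Stra6-/- the summed normalized value of 12 RPE markers was 549995 to 604004, against 140024 to 148174 in VAS Stra6-/-, 133696 to 150496 in VAS WT and 42675 to 79052 in VAD WT, and 11 of 12 RPE markers were higher than in VAS Stra6-/-. Markers of sclera and tendon fibroblasts (8 of 8), macrophages (8 of 8), melanocytes and melanosomes (8 of 8) and endothelium (5 of 8) were higher there too. The 10 markers of surface epithelium and cornea were all lower, with sums of 24020 to 31464 against 896656 to 931577, and so were 5 of 6 cone, 4 of 8 rod and 3 of 8 skeletal muscle markers, while inner retina markers went both ways, 3 higher and 3 lower, and erythrocyte markers had 0 of 7 called by limma, 1 by edgeR and 1 by DESeq2, with 1 at an unadjusted p under 0.05. No marker of these cell types was at 0 in all libraries of a group. The 10 antioxidant genes are expressed in many cell types, and the part of this mixture in their rise was not tested. Nor was its part tested for the pathway lists, including the falls of Tkt, Gsta4, Gsto1 and Chac1 in the same libraries.

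VAS Stra6-/- and VAS WT differed in make-up too. RPE sums overlapped, with 3 of 12 RPE markers lower, 1 of 8 macrophage markers was lower, with sums of 9222 to 10103 against 8784 to 9569.9, and fibroblast sums were 39390.1 to 40836 against 39298 to 41608 (0 of 8 markers called by limma, edgeR or DESeq2, and 0 at an unadjusted p under 0.05). Skeletal muscle markers were higher in VAS Stra6-/-, 8 of 8, with sums of 25026 to 28196 against 9543 to 11295, cone markers lower, 6 of 6, at 570 to 638 against 2231 to 2890, and 4 of 10 surface epithelium markers were higher and 1 lower, and 3 of 8 melanosome markers were higher. Inner retina sums were 55349.7 to 56839.5 against 41461 to 45109.8, with 1 of 8 markers higher and 3 lower, and endothelium sums were 7821 to 8965 against 9649.7 to 10725, with 3 of 8 lower. The summed erythrocyte markers were 13040 to 14684 against 5880 to 6700.2, with 0 of 7 called by limma, edgeR or DESeq2 and 4 at an unadjusted p under 0.05. Whether these differences have a part in the rise of Hmox1, Gclc, Txnrd1 and Srxn1 was not tested. With the VAD diet in WT, 11 of 12 RPE markers were lower, beside 5.5% of all genes. Lower too were 5 of 8 macrophage (1 higher), 4 of 8 skeletal muscle, 4 of 8 melanosome, 2 of 10 surface epithelium, 2 of 8 inner retina and 1 of 8 endothelium markers. Of the fibroblast markers 3 of 8 were higher, beside 3.29% of all genes. No rod, cone or erythrocyte marker was called by limma. The part of this in the diet differences of the 10 genes in WT was not tested. In VAD WT, replicates 2 and 4 had RPE sums of 79052 and 77195 against 42675 to 45439 in the other 3, and fibroblast sums of 154272 and 158522 against 44912 to 47205, as the plot of marker sums shows.

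**Figure D5:**
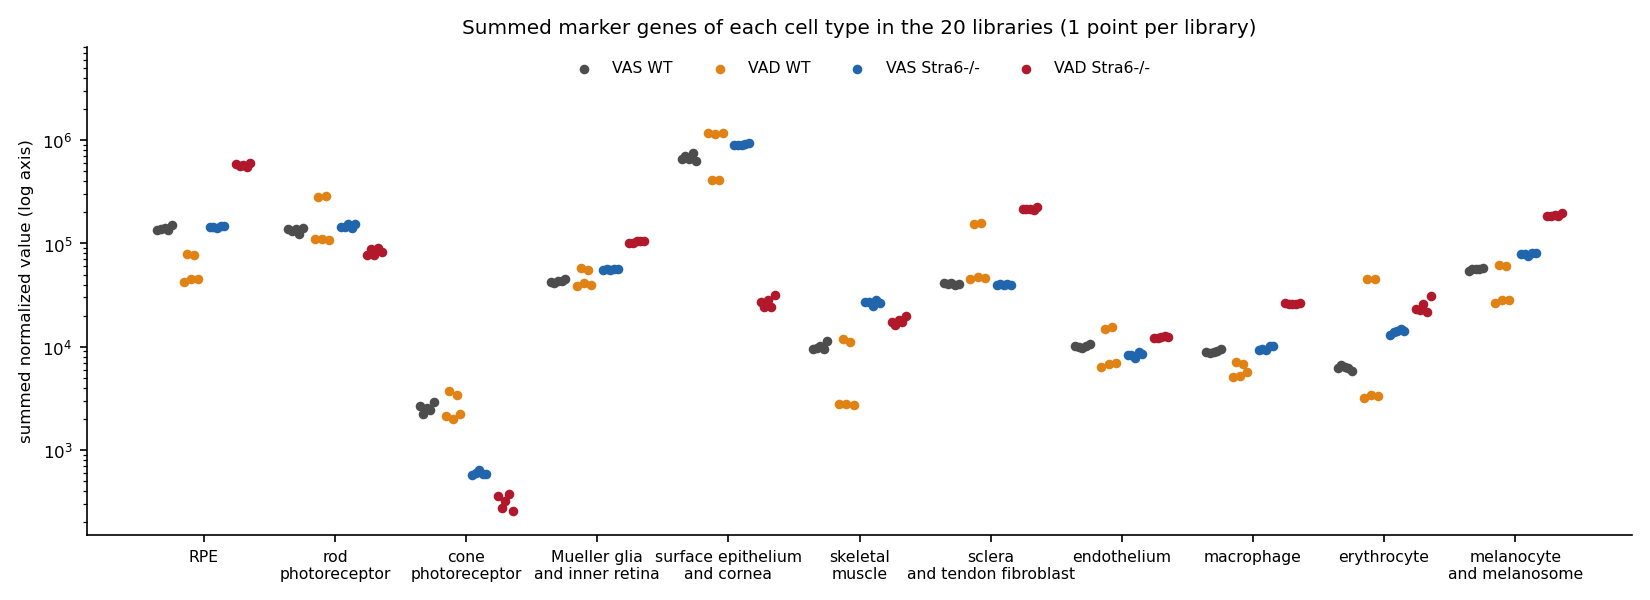
Summed normalized value of the marker genes of 11 cell types (log axis), 1 point for each of the 20 libraries, coloured by group. The libraries labelled VAD Stra6-/- are highest for RPE (549995 to 604004) and lowest for surface epithelium and cornea (24020 to 31464), and VAD WT splits into replicates 2 and 4 and the other 3 for most cell types.

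Across the 20 libraries the 10 genes followed each other to different degrees. On log2 values, Pearson's r between pairs of members ran from 0.21 for Txnrd1 and Sod2 to 0.98 for Srxn1 and Cat, as a description over 20 libraries that share the 4 group steps and the cell mixture above. Without the libraries labelled VAD Stra6-/-, over 15 libraries, Hmox1 still went with Gclc (0.91), Srxn1 (0.92), Txnrd1 (0.90) and Cat (0.83), and Nqo1 with Sod2 (0.89). Sod1 ran against Gclc (-0.82), Srxn1 (-0.81) and Hmox1 (-0.78) there, and with them over all 20 (0.37, 0.73 and 0.55).

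The genes most like each member, among 12289 other genes with a mean value of at least 100, were found by the same r over 20 libraries. For Hmox1 they were Adipor2, a receptor for adiponectin (0.99), and Hspa8, a constitutive heat shock protein (0.99). For Srxn1 they were Eprs, a glutamyl-prolyl-tRNA synthetase (0.99), and Pitpna (0.99), and for Cat they were Pla2g7, a secreted phospholipase (0.996), and Ghitm (0.995). Txnrd1 was nearest to Ndrg1 and Cflar (both 0.98), Gclc to Cd14, a receptor of monocytes and macrophages (0.98), and Mtpn (0.97), and Sod1 to Fap, a marker of activated fibroblasts (0.98), and Csad (0.97). Nqo1 and Sod2 shared Lamb1, a laminin chain (0.95 and 0.96), beside Suclg2 (0.97) and Reep5 (0.97). Gclm was nearest to Ptpn2 (0.89) and Farsb (0.88), and Gsr to Rcan1 (0.94) and Hadha (0.93). Genes with r above 0.95 numbered 379 for Cat, 152 for Srxn1, 93 for Hmox1 and 63 for Txnrd1, and 0 for Gclm and Gsr, so the profile of Cat, low in 3 groups and high in the libraries labelled VAD Stra6-/-, was shared by many genes.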

How the data were processed

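Gene expression was measured by sequencing of oligo(dT)-selected RNA from 20 outer eyecup samples. The authors aligned reads with STAR 2.5.3a to GRCm38, counted genes with RSEM 1.2.30 and normalized with DESeq2 1.32.0. The deposited values (signal) are gene counts divided by 1 size factor per library. The size factor step gave back whole reads (within 0.01) in 19 libraries, and replicate 1 of the libraries labelled VAD Stra6-/-, whose step was near 1, stayed out of the count tests. Columns that match no sample numbered 0, and the authors' scaling was kept.

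Genes with at least 5 reads in total were tested on log2(value + 1) with limma 3.58.1 (R 4.3.3, trended variance, 4 group means, 20 libraries, Benjamini-Hochberg, adjusted p under 0.05). Alternatives were edgeR 4.0.16 (quasi-likelihood, TMM) and DESeq2 1.42.0 on recovered reads, TMM rescaling, pseudocounts of 0.5 and 4, no filter, a group mean of at least 10, the replicate number as a block, only the compared groups, VAD WT without replicates 2 and 4, and each library left out. VAS Stra6-/- against VAD WT without replicates 2 and 4 was added after seeing the data. The limma, edgeR and DESeq2 fits were tested on simulated data for VAS Stra6-/- against VAS WT only. Gene positions and exon lengths come from GENCODE vM21 and promoters from RefSeq on GRCm38.p6. Recovered reads per library had a median of 17785927, and intervals cover counting error only.

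The members, the gene lists and VAD WT replicates 2 and 4 were chosen with earlier results of these data known. Of each of the 6 pathway lists, the text names the called genes with a group mean of at least 100, all for the regulators and otherwise up to 3 with the largest changes in each direction in a comparison, shortened in places, and the regulators that were not called. Other genes named, such as Hmox2, were chosen after their values were seen. The 12 marker lists (1 of them sex-linked genes) served as checks, and Prdx6, Rlbp1 and Pmel each stand in 2 lists. The result of 1 gene of a pathway list is not reported here.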

Additional observations from a re-analysis of the deposited data

Results flagged for a closer look

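The values of 3 genes stood away from their groups of 5 by Dixon's ratio, all in VAS WT replicate 1, which read 241 for Hmox1, 844 for Gclc and 806 for Srxn1, above the other 4 libraries of its group. These are 3 of 40 groups checked, where chance flags about 1 in 20 groups. Without that library the differences of these 3 genes between VAS Stra6-/- and VAS WT kept their direction and their call.

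The effect of the VAD diet differed between the libraries labelled Stra6-/- and WT, by the interaction in limma over all genes, for 6 of the 10 genes. The diet difference in Stra6-/- minus that in WT was 1.71 for Cat, 1.32 for Srxn1, 1.08 for Hmox1, 0.96 for Sod1, 0.88 for Txnrd1 and 0.47 for Gsr on the log2 scale, with adjusted p from 2.35e-09 for Cat to 0.00457 for Gsr. Each of them rests on the libraries labelled VAD Stra6-/-, where Stra6 and the summed RPE markers were both above those of VAS Stra6-/-. Whether the label holds was not tested, and sex-linked transcripts differ between the same groups.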

How the results depend on the processing

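Of 1500 recomputed values of single genes among the 10, 1455 kept their direction and their side of the threshold, 21 lost and 22 gained a call and 2 reversed without VAD WT replicates 2 and 4, the Hmox1 difference between VAD WT and VAS WT, from 0.01 to -0.31, and the Nqo1 difference between VAS Stra6-/- and VAD WT, from 0.01 to -0.28. The cause was not tested. All 10 genes were called between VAS Stra6-/- and the libraries labelled VAD Stra6-/- in all 30 alternatives. The count was 9 to 10 against VAD WT, 6 to 7 for the interaction and 5 to 8 for VAS Stra6-/- against VAS WT, where leaving out 1 library gave 5 to 7.

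For VAD WT against VAS WT the 2 calls among the 10 genes became 1 with edgeR, 0 when only these 2 groups were fitted (2 at an unadjusted p under 0.05, limma), 7 without VAD WT replicates 2 and 4 and 1 to 4 with 1 library left out, and the 4 were reached without VAD WT replicate 2 or replicate 4. Over all genes the 1652 calls became 639 in the fit of only these groups, 7124 without VAD WT replicates 2 and 4 and 1260.0 to 2651 with 1 library left out, 2651 without VAD WT replicate 4. For VAS Stra6-/- against VAS WT the 5010 calls became 8208 in the fit of only these groups, 7524 without VAD WT replicates 2 and 4 and 4282 to 5575 with 1 library left out. For VAS Stra6-/- against VAD WT, 6630 calls became 10022 without VAD WT replicates 2 and 4. The other counts over all genes stayed within 1.5 times.

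The replicate number as a block gave 4820 calls for VAS Stra6-/- against VAS WT and 1446 for VAD WT against VAS WT, and the same 6, 2, 10, 9 and 6 counts among the 10 genes. Libraries with the same number did not deviate together, with correlations from -0.07 to 0.07 over 30 pairs, and 6 of 20 correlated best with their own number, so the samples share only a number. The looser promoter core named the same 4 genes as the stricter one. Libraries of a group differed by more than counting noise (mean chi-square per gene 3.39 to 202.1), so none was counted together with another. Counts of at least 114 reads per member and library limit the smallest differences that could be seen.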
